A study of Mus musculus with 48 samples.

Results

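The 150 probe sets described here were picked by a rule on the mean log2 value in 4 consecutive blocks of 12 hourly arrays, hours 20-31, 32-43, 44-55 and 56-67 after forskolin. A probe set needed a single gene symbol, a mean of 10 or more in hours 56-67, a mean of 8 or more in hours 20-31 and a difference of less than 0.25 between the first 2 blocks. Of 45037 probe sets without controls, 34945 had a single symbol, 16238 of those passed the level limits and 14099 passed the flatness limit too. The 150 with the highest value of hours 56-67 minus hours 32-43 were taken, and they stand for 140 genes, 10 of which hold 2 places. Because that difference chose them, its values are given below as a description, and nothing is read from counts of members past a threshold on it. At the edge of the choice Wdr37, Smarca1 and Zeb1 entered with 0.57 each, whereas Zfp871, Resf1 and Yipf5 stayed outside with 0.56 each.

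All arrays came from NIH3T3 cells, an established mouse fibroblast line, grown to confluence on dishes and treated with forskolin, an activator of adenylyl cyclase that is used to align the circadian clocks of cells in a dish. RNA was collected once an hour, so every block holds the same line, the same treatment and only later times, with 1 array at each hour and no untreated cells. The blocks follow each other in time, and an effect of forskolin, of the clock or of time in confluent culture cannot be told apart here. A p-value below measures the spread between hourly arrays, which may be technical. Of 10 fibroblast marker genes, 10 lay above the median level of all probe sets, against 0 of 10 epithelial, 1 of 10 endothelial and 2 of 10 macrophage markers.

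The array reads labelled RNA that was copied from the 3′ end of each messenger. When RNA or its copy is shorter, a probe set that lies far from the 3′ end of the measured transcript loses signal, while one close to that end keeps it, and control probe sets for the 5′ and 3′ parts of β-actin and Gapdh show how far this has gone on each array. Where each of the 150 lies along its transcript was not analysed here. Confluent fibroblasts stop dividing through contact with their neighbours. Cells at rest are known for continued secretion and remodelling of matrix and for lysosomal turnover of proteins.

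With all 48 arrays the 150 probe sets were 1.61-fold higher in hours 56-67 than in hours 32-43 at the median, a log2 difference of 0.69 with a range of 0.57 to 1.45. The median difference over the 14099 probe sets that passed the level and flatness limits was -0.01. Hours 44-55 were 0.22 above hours 32-43 at the median, and hours 56-67 were 0.49 above hours 44-55. In limma's fit 101 of the 150 passed an adjusted p of 0.05 for the difference that chose them, with 8.4% of all probe sets called up, and nothing is read from that count.

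The rise was uneven between arrays. In 10 of the 48 arrays the 3′ probe set of β-actin exceeded the 5′ one by more than 1.4 on the log2 scale, at hours 20, 22, 24, 36, 38, 40, 43, 45, 46 and 67. Hours 20-31 held 3 of these arrays, hours 32-43 held 4, hours 44-55 held 2 and hours 56-67 held 1. The last of them, hour 67, had 1.42, just over the limit, and a Gapdh difference of 0.67, within the range of the other late arrays. Relative to their own mean in hours 32-43, the median of the 150 probe sets was -1.18 at hour 20, -0.99 at hour 24, -1.37 at hour 36 and -1.06 at hour 45, whereas at hour 67 it was 0.78. On the 38 arrays up to 1.4 the medians over arrays were 0.33 in hours 20-31, 0.40 in hours 32-43, 0.47 in hours 44-55 and 0.74 in hours 56-67.

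**Figure D1:**
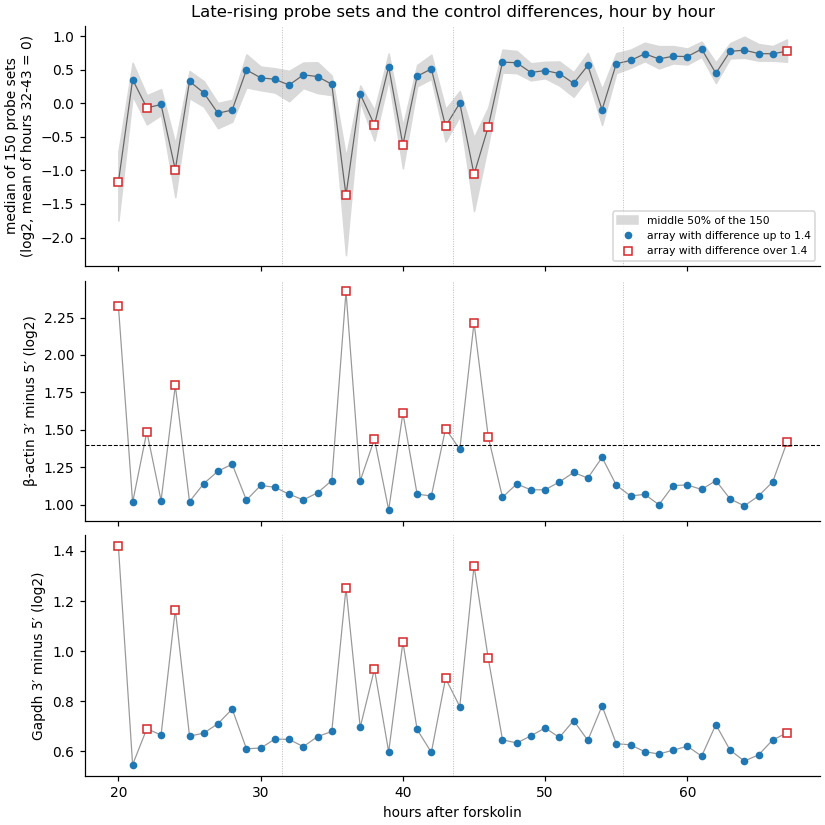
Top, the median log2 value of the 150 probe sets at each hour after forskolin relative to their mean in hours 32-43, with the middle 50% of probe sets in grey. Middle and bottom, the log2 difference between the 3′ and 5′ control probe sets of β-actin and Gapdh on the same arrays. Open squares are the 10 arrays with a β-actin difference over 1.4 (dashed line), filled circles are the other 38, and dotted lines part the 4 blocks. The deepest dips of the top panel, at hours 20, 24, 36 and 45, stand at the peaks of both lower panels.

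As a description over arrays, which follow each other in time and share their controls, the median profile of the 150 ran against the β-actin difference with Pearson's r = -0.83 and a Spearman coefficient of -0.94 over the 10 arrays, and r = -0.56 and a Spearman coefficient of -0.41 over the 38. Against the Gapdh difference r was -0.92 over the 10 arrays and -0.77 over the 38. As deviations from block means, r over the 38 was -0.83 for β-actin and -0.90 for Gapdh.

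Hours 44-55 were not used in the choice of members, so their 12 arrays allow a test on arrays outside it. The fit below holds no term for time. The highest β-actin differences of the block stood at its start, with 1.37, 2.22 and 1.45 at hours 44, 45 and 46. A trend over the block therefore enters the coefficient too. A limma fit of each probe set on the β-actin difference over these 12 arrays called 118 of the 150 down, against 8.84% of all probe sets and 18.1% of those that passed the level and flatness limits. Limma called 0 of the 150 up, against 9.67% of all probe sets, and 0 had a positive coefficient at an unadjusted p under 0.05. The median coefficient of the 150 was -1.52 log2 for each log2 unit of the β-actin difference. Ubfd1, a ubiquitin-family domain protein, had a coefficient of -4.69 ± 0.24 (SE, adjusted p = 2.65e-06), and Srsf11, a splicing factor, one of -4.24 ± 0.15 (adjusted p = 1.71e-07). Ptpn11, which encodes the tyrosine phosphatase SHP2, had -5.58 ± 0.95 (adjusted p = 0.00201). With the Gapdh difference in place of that of β-actin, 121 of the 150 were called down, against 9.26% of all. Without hours 45 and 46, the arrays over 1.4 in this block, 14 were called down, against 0.326%, with a median coefficient of -2.23 over 10 arrays.

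Over all 4 blocks, with each block at its own mean, 138 of the 150 were called down and 3 up, against 16.8% down and 20.4% up among all probe sets. The arrays that set the block means enter this fit too, so these counts describe the members. On the 38 arrays 95 were called down, against 4.55%. The 3 called up were Dpp7, a dipeptidyl peptidase of lysosomes and other vesicles (0.86 ± 0.17), Gm15867 (0.44 ± 0.16) and Smarca1, an ISWI chromatin remodeller (0.32). The 9 not called either way were Lta4h, Nkain1, Rabepk, Pdia3, Catsper2, Gm41724, Ang, Sertad4 and Lhx9.

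**Figure D2:**
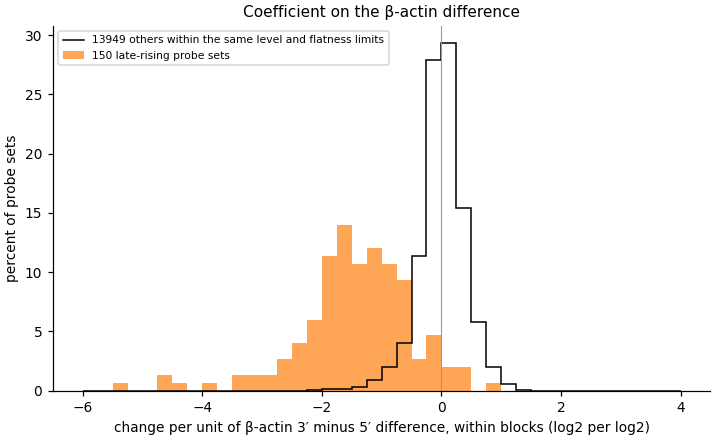
Percent of probe sets (vertical) by the change in log2 value for each log2 unit of the β-actin 3′ minus 5′ difference, fitted within blocks over 48 arrays (horizontal). Bars are the 150 late-rising probe sets, with a median of -1.43, and the black outline is the other 13949 probe sets within the same level and flatness limits, with a median of 0.02.

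Without the 10 arrays the late difference was smaller. The median of hours 56-67 minus hours 32-43 over the 150 was 0.33, or 1.26-fold, with a range of -0.06 to 1.01, and 148 of 150 stayed above 0. The exceptions were Tgfbr1, the type I receptor for TGF-beta, and Ttpal, both at -0.06. Of the 14099 probe sets within the level and flatness limits 7039 were above 0. The 38 arrays are among those that chose the 150, so differences on them, here and below, are a description. With all 48 arrays and the β-actin difference as a covariate the median was 0.45 and 150 of 150 were above 0, with Tgfbr1 at 0.17 ± 0.20 and the methyltransferase gene Setdb1 at 0.24 ± 0.24. With the Gapdh difference as the covariate the median was 0.33 and 146 of 150 were above 0. On these 38 arrays hours 44-55 minus hours 32-43 had a median of -0.0040, and hours 32-43 were 0.20 above hours 20-31. The rule applied to the 38 arrays chose 39 of the 150 again, for 37 genes. Of the others, 44 were no longer flat between the first 2 blocks and 67 were flat but were not chosen, the new limit of the difference being 0.40. The name "rising only in the last day" thus stands for a rule on block means and not for level values before hour 44. That rule gave the 150 on 48 arrays and 39 of them again on the 38. Of these 39, Nkain1, Akr1b10 and Smarca1 had a called upward slope within hours 32-43 on both sets of arrays. The 39 had a median difference of 0.54 on the 38 arrays, with a range of 0.41 to 1.01, and 0.68 on all 48. Their β-actin coefficients had a median of -0.57, and those of the other 111 a median of -1.56.

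**Figure D3:**
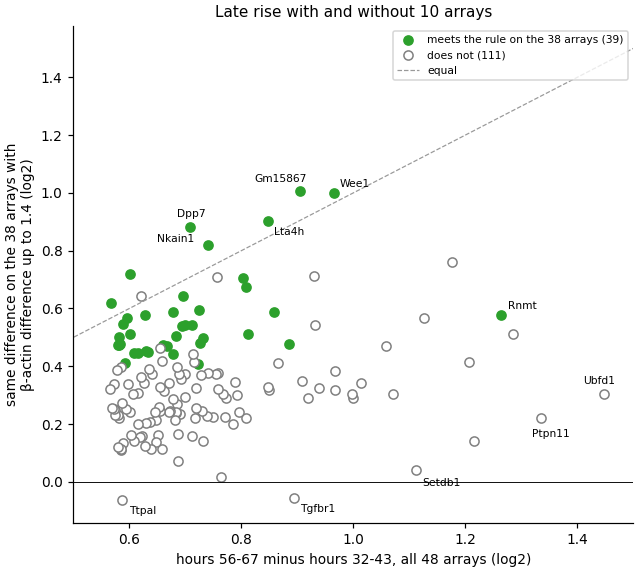
Hours 56-67 minus hours 32-43 (log2) of each of the 150 probe sets, on all 48 arrays (horizontal) and on the 38 arrays with a β-actin difference up to 1.4 (vertical). Filled circles are the 39 that the rule chose on the 38 arrays too, open circles the other 111, and the dashed line marks equal values. Most points lie below the line, and Wee1, Gm15867, Dpp7, Nkain1 and Lta4h lie on or above it.

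Among the 39, Wee1, a kinase that holds back entry into mitosis and is a known clock output, had the second highest difference on the 38 arrays, 1.00 ± 0.10 (SE), after Gm15867 at 1.01 ± 0.17. On the 38 arrays Wee1 lay between 8.90 and 9.73 log2 (median 9.28) in hours 20-31, between 9.16 and 9.55 (median 9.33) in hours 32-43, between 9.76 and 10.49 (median 10.12) in hours 44-55 and between 10.09 and 10.82 (median 10.26) in hours 56-67. Every late array thus stood above every array of hours 32-43, and most of the step was already present in hours 44-55, which were 0.80 higher. With all 48 arrays the ranges of hours 56-67 (9.42 to 10.82) and hours 32-43 (8.75 to 9.55) overlapped through hour 67.

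Nkain1, a small membrane protein that binds the Na,K-ATPase, was 0.82 ± 0.09 higher on the 38 arrays. Its values there ran from 10.58 to 10.98 in hours 20-31, from 10.43 to 11.26 in hours 32-43, from 10.98 to 11.75 in hours 44-55 and from 11.62 to 11.96 in hours 56-67, with medians of 10.76, 10.95, 11.58 and 11.75. The last block did not overlap with hours 32-43. Lta4h, the hydrolase that makes leukotriene B4, was 0.90 ± 0.17 higher on the 38 arrays, with at least 9.88 in hours 56-67 and at most 9.90 in hours 32-43, so that the 2 blocks just touched.

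Matrix, secreted and surface proteins made a group of 13 probe sets for 12 genes, sorted by role after the members were known. Its median difference was 0.66 on all arrays and 0.54 on the 38, against 0.69 and 0.33 over the 150. The median β-actin coefficient of the group was -0.68, against -1.43 over the 150, and the group was not tested. Aspn encodes asporin, a small leucine-rich proteoglycan that binds collagen and TGF-beta, and held 2 places. Its brighter probe set lay between 15.47 and 16.23 (median 16.01) in hours 20-31, between 15.03 and 16.46 (median 16.09) in hours 32-43, between 15.80 and 16.71 (median 16.49) in hours 44-55 and between 16.58 and 16.91 (median 16.74) in hours 56-67 on all arrays. No array of hours 56-67 overlapped with hours 32-43, the array of hour 67 included. The second probe set showed the same split, with 15.64 to 16.17 in hours 56-67 and 14.80 to 15.44 in hours 32-43. On the 38 arrays the differences of the pair were 0.54 ± 0.06 and 0.47 ± 0.05.

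Phex, a membrane endopeptidase known for its part in phosphate balance and bone mineral, lay between 12.36 and 13.05 in hours 56-67 and between 11.02 and 12.31 in hours 32-43, again without overlap, and was 0.60 ± 0.08 higher on the 38 arrays. Gpc6, a glypican, and Adam19, a membrane metalloprotease, were 0.47 ± 0.06 and 0.45 ± 0.07 higher there, without overlap on 48 or on 38 arrays. Ang, which encodes the secreted ribonuclease angiogenin, was 0.72 ± 0.12 higher on the 38 arrays. Fxyd1, a regulator of the Na,K-ATPase also called phospholemman, was 0.71 ± 0.14 higher there but 0.28 above hours 20-31 in hours 32-43, past the flatness limit. The lowest of the group was Htr2b, a serotonin receptor, with 0.20 on the 38 arrays and 0.62 on all.

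Maoa, the monoamine oxidase of the outer mitochondrial membrane, lay between 14.22 and 14.49 (median 14.37) in hours 56-67 and between 12.47 and 13.93 (median 13.78) in hours 32-43. These blocks did not overlap, and the difference was 0.54 ± 0.07 on the 38 arrays. Deptor, an inhibitor of mTOR, lay between 16.15 and 16.50 (median 16.36) in hours 56-67 and between 15.46 and 16.02 (median 15.77) in hours 32-43, without overlap, and was 0.51 ± 0.05 higher on the 38 arrays. Pmepa1, a membrane protein induced by TGF-beta that dampens its signal, was 0.71 ± 0.06 higher on the 38 arrays with 15.56 to 15.84 in hours 56-67 and 14.54 to 15.26 in hours 32-43 on all 48. It failed the rule on the 38 arrays only through the flatness limit, since hours 32-43 stood 0.27 above hours 20-31. Sertad4, a SERTA domain protein, was 0.57 ± 0.06 higher and had a β-actin coefficient of -0.01 ± 0.06.

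In all, every array of hours 56-67 lay above every array of hours 32-43 for 17 of the 150 with 48 arrays, against 1.22% of all probe sets, and for 21 with the 38 arrays, against 2.16%. These counts restate the difference that chose the 150, and nothing is read from them. Besides those named, Fuca1, the lysosomal fucosidase, Dpysl3, a cytoskeletal protein of neurites, Akap13, Ahnak, a giant scaffold protein, Tbc1d19, Zbtb20 and Gm41724 were among the 21.

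**Figure D4:**
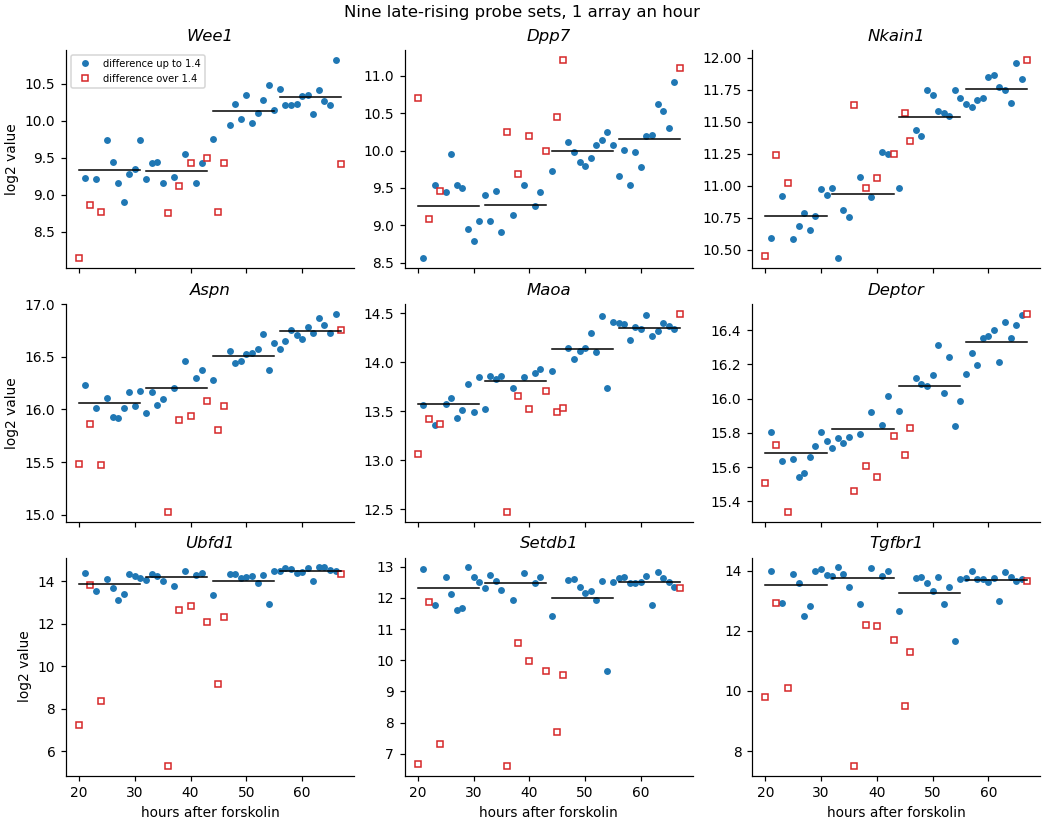
Log2 value of 9 of the 150 probe sets at each hour after forskolin, 1 array a point. Open squares are arrays with a β-actin difference over 1.4, filled circles the others, and black lines the block means of the filled circles. In the top 2 rows (Wee1, Dpp7, Nkain1, Aspn, Maoa and Deptor) the filled circles climb in the last 2 blocks, whereas in the bottom row (Ubfd1, Setdb1 and Tgfbr1) most stay near 1 level and the open squares of the first 3 blocks lie far below it.

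The genes of the bottom row held places 1, 9 and 24 in the ranking by all arrays. Ubfd1 was the highest, with a difference of 1.45. It lay between 7.25 and 14.38 (median 13.76) in hours 20-31, between 5.31 and 14.46 (median 14.02) in hours 32-43, between 9.17 and 14.46 (median 14.18) in hours 44-55 and between 14.01 and 14.64 (median 14.49) in hours 56-67. The last block overlapped with each of the others, and the low values were those of the arrays over 1.4, since on the 38 arrays hours 32-43 ran from 13.74 to 14.46. The difference on the 38 arrays was 0.31 ± 0.17. Setdb1, a methyltransferase for lysine 9 of histone H3, had 1.11 on all arrays and 0.04 ± 0.26 on the 38. Its arrays lay between 11.78 and 12.82 in hours 56-67 and between 6.62 and 12.81 in hours 32-43, or from 11.94 to 12.81 in hours 32-43 on the 38 arrays. Tgfbr1 had 0.89 on all arrays and -0.06 ± 0.24 on the 38. Bcl2l1, the gene of the survival factor Bcl-xL, had 1.22 and 0.14 ± 0.23, and Ptpn11 had 1.34 and 0.22 ± 0.29.

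The genes that follow were also among the 30 with the highest difference on all arrays. Grpr, the receptor for gastrin-releasing peptide and one of the surface proteins above, had 1.13 on all arrays and 0.57 ± 0.16 on the 38. Ero1b, an oxidase of the endoplasmic reticulum, had 0.93 and 0.54 ± 0.10, and Pogz, a chromatin-bound zinc finger protein, 0.88 and 0.48 ± 0.13. Pogz was among the 39. Grpr and Ero1b were not, although both exceeded the limit of 0.40 there, and so missed another limit of the rule on the 38 arrays. Ppp1r10, which targets protein phosphatase 1 to the nucleus, had 1.21 and 0.41 ± 0.18. Pafah1b1, the dynein regulator LIS1, had 0.97 and 0.32 ± 0.17. Zfp955a, Ccdc93, Spata5, Srsf11, Clcn3, Zfr, Ube2k, 4930523C07Rik, Plagl2 and Zfp451 lay between 0.29 and 0.59 on the 38 arrays, against 0.85 to 1.07 on all arrays.

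Genes of RNA processing, sorted by role after the members were known like each group below, had 13 probe sets for 12 genes. Their median was 0.77 on all arrays and 0.33 on the 38, against 0.69 and 0.33 over the 150, with a median β-actin coefficient of -1.89, and 13 of 13 were called down on that coefficient, against 138 (92%) of the 150. Rnmt, which methylates the messenger cap, kept the highest difference of the group, 0.58 ± 0.19 on the 38 arrays and 1.26 on all. Elavl1, the RNA-binding protein HuR, had 0.32 ± 0.15 and 0.94. Chromatin and transcription proteins made the largest group, with 25 probe sets for 24 genes and medians of 0.67 on all arrays and 0.31 on the 38. Phf14, a PHD finger protein, had 0.51 ± 0.18 on the 38 arrays and 1.29 on all, and the zinc finger repressor Zbtb20, which held 2 places, had 0.76 ± 0.22 and 0.45 ± 0.08 on the 38 arrays. Neither Phf14 nor the Zbtb20 probe set with 0.76 was among the 39.

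Kinases, phosphatases and their partners had 19 probe sets with a median of 0.71 on all arrays and 0.34 on the 38, and their range on the 38 arrays ran from Tgfbr1 to Wee1. Braf, a kinase of the ERK pathway, had 0.30 ± 0.18 on the 38 arrays and 1.00 on all. Cdk7, the kinase of the basal transcription factor TFIIH, had 0.51 ± 0.13 and 0.81. The 6 ubiquitin-related probe sets had a median of 0.23 on the 38 arrays and the 11 of membrane traffic and organelles one of 0.21, against 0.70 and 0.69 on all 48. Mtch2, an insertase of the outer mitochondrial membrane, was the highest of the traffic and organelle group with 0.68 ± 0.14 on the 38 arrays. The 5 probe sets for 4 genes of the primary cilium, the sensory antenna that resting fibroblasts carry, had medians of 0.70 on all arrays and 0.37 on the 38. The 7 probe sets of small-molecule enzymes, Maoa and Lta4h among them, had 0.68 and 0.48, and 6 named only as zinc finger proteins had 0.66 and 0.26.

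A slope inside a block does not enter the block's mean, but only hours 44-55 lay outside the rule, and the slopes of the other blocks come from arrays that it used. In hours 44-55 the median slope of the 150 was 0.07 log2 per hour and 142 slopes were above 0. Limma's test called 17 up, against 3.73% of all probe sets and 6.09% of those within the level and flatness limits. The count was 5 with quantile normalization, 3 with centring on array medians and 0 with means of 3 hours (26 at an unadjusted p under 0.05). Fem1b, an adaptor of ubiquitin ligases, had 0.15 ± 0.04 log2 per hour (adjusted p = 0.0221), Pdia3, a protein disulfide isomerase of the endoplasmic reticulum, 0.09 ± 0.02 (adjusted p = 0.0217) and Wee1 0.09 ± 0.03 (adjusted p = 0.0258). Each of these genes had a brighter probe set outside the 150, given below. The other highest called slopes were those of Zbtb20, Rc3h2, Fuca1, Wdr37, Fxyd1, Ahnak and Sephs1, between 0.08 and 0.15. The arrays of hours 45 and 46, which open this block, were among the 10. Without the 10 arrays the median slope was 0.0059 log2 per hour, 10 (6.67%) were called up and 2 down, Kdm6a and Tbc1d19, against 3.34% up and 24.8% down of all probe sets and 5.33% up and 4.95% down of those within the level and flatness limits. Fem1b (0.10, adjusted p = 0.0260) and Pdia3 (0.09, adjusted p = 0.0332) were among the 10 whereas Wee1 (0.04, adjusted p = 0.0953) was not.

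In hours 56-67 the 150 were close to level, with a median slope of 0.0065 log2 per hour. Sertad4 was the single member called, with 0.04 ± 0.01 (adjusted p = 0.0374), against 0.278% called up among all probe sets, and without the 10 arrays limma called none, with 13 of the 150 at an unadjusted p under 0.05. In hours 20-31 the median slope was 0.08 log2 per hour, with 138 of 150 above 0 and 61 (40.7%) at an unadjusted p under 0.05, against 17.0% of all probe sets, and without the 10 arrays it was 0.01 with 101 above 0. Hours 20-31 gave a called rise for Rlim (0.11 log2 per hour, adjusted p = 0.0431) and a called fall for Pdia3 (-0.09, adjusted p = 0.0227), against 1.87% up and 2.35% down. In hours 32-43 Pmepa1, Nkain1, Akr1b10, Gm41724 and Smarca1 were called up, by 0.04 to 0.07 log2 per hour, against 2.35%. Without the 10 arrays 15 were called up there, against 4.19% of all probe sets and 5.82% of those within the level and flatness limits. Fxyd1, the brighter Aspn probe set, Gpc6, Adam19 and Lpar4 were among them. In this fit limma called 17519 of all 45037 probe sets down, which makes the adjusted limit easier to pass. None of these members was called on all arrays, where limma's unadjusted p was 0.16 for Aspn, 0.55 for Gpc6 and 0.33 for Adam19. With the β-actin covariate Aspn and Gpc6 were called. Their climb before hour 44 thus depended on how the arrays over 1.4 were handled. A cosine of 12 h over the block trends passed limma's test for 0 of the 150 and for 0 of all probe sets, with 2 of the 150 (1.33%) and 2.11% of all at an unadjusted p under 0.05.

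Most members were not the brightest probe set of their gene. Among members whose gene had several probe sets, 10.7% were the brightest, against 48.5% of the probe sets within the level and flatness limits. For 122 genes another probe set outside the 150 could be set beside the member, brighter in 115 cases. These other probe sets had a median of 0.10 for hours 56-67 minus hours 32-43, against 0.69 for the members of the same genes, and a median β-actin coefficient of -0.03, against -1.46. On the 38 arrays the medians were 0.08 and 0.32. The members were chosen for this difference and the other probe sets lie outside the 150, so a gap between them follows from the choice. Of the 122, limma called 49 up and 7 down on 48 arrays and 39 up and 9 down on the 38, where 8.4% and 8.11% of all probe sets, and 14.5% and 14.3% of those within the level and flatness limits, were called up. The design sequence of a member was a RefSeq transcript in 9.33% of cases, against 16.9% within the level and flatness limits.

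**Figure D5:**
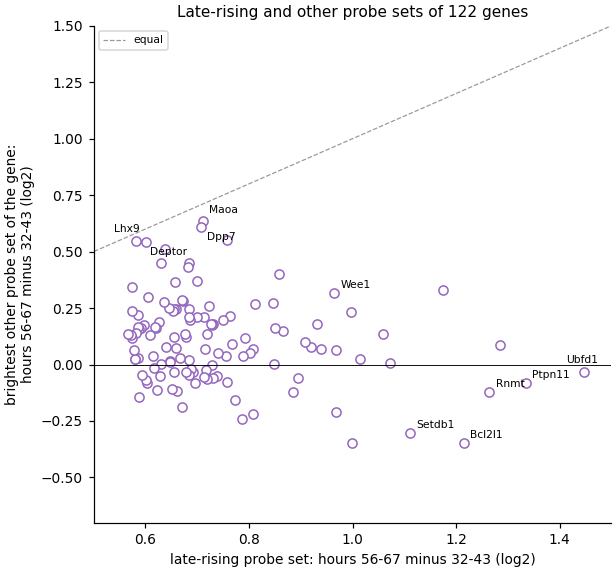
Hours 56-67 minus hours 32-43 (log2, 48 arrays) of the late-rising probe set of a gene (horizontal) and of the brightest other probe set of the same gene (vertical), for 122 genes. The dashed line marks equal values. Maoa, Dpp7, Deptor and Lhx9 lie near the line, whereas Ubfd1, Ptpn11, Rnmt, Setdb1 and Bcl2l1 lie at or below 0 on the vertical axis.

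For some genes both probe sets were higher in hours 56-67 than in hours 32-43. The other probe set of Maoa had 0.64, that of Dpp7 0.61, that of Lhx9, a LIM homeobox factor, 0.55, that of Deptor 0.54 and that of Adam19 0.45. The other probe set of Wee1 had 0.32, that of Lta4h 0.27 and that of Gpc6 0.25. By contrast the other probe set of Setdb1 had -0.30, that of Bcl2l1 -0.35, that of Ptpn11 -0.08 and that of Rnmt -0.12. The other probe sets of Fem1b and Pdia3, at mean levels of 16.65 and 17.29, had -0.12 and -0.03. The members of these genes lay at 11.27 and 10.64. For Ahnak and Mtch2 the other probe sets, at 18.39 and 16.38, had 0.05 and 0.07.

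Few members belonged to the gene lists used for the series. For hours 56-67 minus hours 32-43 limma called 3783 up (8.4%) and 3838 down of all 45037 probe sets. Among the 14099 within the level and flatness limits it called 2038 up (14.5%) and 2416 down. The counts below are set beside these shares, and no list was tested as a set. Aspn was the one member gene among 28 measured genes of proteoglycans and matrix glycoproteins, of which 13 were called up and 6 down for hours 56-67 minus hours 32-43 by the brightest probe set of each gene. The highest of that list were Mfap4, a microfibril protein (3.31 ± 0.19), Fmod, or fibromodulin (2.42 ± 0.30), and Ogn, or osteoglycin (1.25 ± 0.09), while Ecm1 was lower (-1.51 ± 0.13). Mfap4, Fmod and Ogn had already differed by 0.57, 0.89 and 0.38 between hours 32-43 and hours 20-31, past the flatness limit, and so were not among the 150. Tgfbr1 was the one member among 23 genes of TGF-beta and BMP signalling, of which 3 were called up and 7 down. Id1, Id2 and Id3, targets of BMP signalling, were lower by 2.12, 0.61 and 0.88, and Ltbp2 by 1.01. Igf2 was the one member among 14 genes of the IGF axis, of which 5 were called up and 3 down. Its member probe set had 0.66 and its brightest one 0.37 ± 0.04, beside Igf1 at 0.88 ± 0.10 and Igfbp4 at -0.72 ± 0.07.

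Dpp7 was the member with the most positive β-actin coefficient. On the 38 arrays it lay between 9.54 and 10.92 (median 10.19) in hours 56-67 and between 8.91 and 9.53 (median 9.33) in hours 32-43, without overlap, and the difference was 0.88 ± 0.16. None of the 30 measured lysosome genes was a member, but 17 of them were called up and 1 down for hours 56-67 minus hours 32-43, and without the 10 arrays 23 were called up, beside 14.5% and 14.3% of probe sets within the level and flatness limits. The highest without the 10 arrays were Ctsk (0.95), Neu1 (0.61) and Man2b1 (0.49). Lysosome genes are known to carry the CLEAR motif, bound by TFEB and its relatives, at their promoters. The promoter table of RefSeq (GRCm38.p6, 250 bases before to 50 after the start) matched 114 of the 140 member genes. These 114 genes had 156 promoters, and a match in 1 promoter was enough, as for Tmem19 below. The core of the CLEAR motif, TCACGTGA, contains the E-box CACGTG and reads the same on both strands. It stood in a promoter of 9 of the 114 genes (7.89%), against 2.48% of genes within the level and flatness limits and 1.12% of all. The E-box stood in 20 (17.5%), against 12.1% and 8.09%. In all 19 motifs were searched on both strands, of which 13 had a higher and 6 a lower share among the member genes than among genes within the level and flatness limits, and the CLEAR core was picked out after these shares were seen. The cAMP response element TGACGTCA stood in 5.26%, against 3.80% and 2.03%, and its first part TGACG in 41.2%, against 38.4% and 23.0%. The others were TGAGTCA for AP-1, GTAAACA for FoxO, TTCNNNGAA for STAT, TGATGCAA for ATF4, TGACTCAGC for NRF2, TTGCGCAA for C/EBP, TTATGTAA for the D-box, GGAATG for TEAD, TATAAA for the TATA box, CCAAT for the CCAAT box, GGGCGG for the GC box, a pair of NF-kB sites, the interferon response core and the CArG box. A match is a description of these letters and not of binding. Besides Dpp7, the 9 were Lnpk, Rbbp4, Wdr19, Sbno1, Lztfl1, Tmem19, Zfp944 and Kdm6a.

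Of the 9 genes, Dpp7, Lztfl1, which controls traffic into cilia, and Tmem19 met the rule on the 38 arrays too, with differences there of 0.88, 0.44 and 0.41. A promoter of each is shown with the CLEAR core in capitals. All 3 are on the minus strand and are written 5′ to 3′ along the gene, Dpp7 at chr2:25356283-25356582, Lztfl1 at chr9:123717576-123717875 and Tmem19 at chr10:115362452-115362751. Another promoter of Tmem19, at chr10:115362218-115362517, did not hold the core and is not shown.
Dpp7: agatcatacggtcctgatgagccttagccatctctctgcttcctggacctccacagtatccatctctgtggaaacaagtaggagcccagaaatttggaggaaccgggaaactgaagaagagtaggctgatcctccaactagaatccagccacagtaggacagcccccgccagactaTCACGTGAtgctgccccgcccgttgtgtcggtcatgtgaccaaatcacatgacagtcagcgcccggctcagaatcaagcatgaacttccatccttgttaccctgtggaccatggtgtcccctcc
Lztfl1: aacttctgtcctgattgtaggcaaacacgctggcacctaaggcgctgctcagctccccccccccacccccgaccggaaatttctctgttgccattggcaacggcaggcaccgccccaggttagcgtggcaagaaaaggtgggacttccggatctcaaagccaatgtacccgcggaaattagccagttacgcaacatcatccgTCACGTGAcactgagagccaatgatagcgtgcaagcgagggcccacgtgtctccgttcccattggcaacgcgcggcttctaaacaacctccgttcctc
Tmem19: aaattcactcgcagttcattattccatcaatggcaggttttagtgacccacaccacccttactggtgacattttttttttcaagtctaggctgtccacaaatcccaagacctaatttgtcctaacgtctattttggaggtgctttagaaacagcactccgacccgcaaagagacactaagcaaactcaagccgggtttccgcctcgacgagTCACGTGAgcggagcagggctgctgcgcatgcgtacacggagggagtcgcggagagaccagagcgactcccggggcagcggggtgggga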

How the data were processed

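RNA from forskolin-treated NIH3T3 cells was hybridized hourly, hours 20 to 67, to 48 Affymetrix mouse genome arrays. The deposited values were intensity on a linear scale, summarised for each probe set and normalized between arrays by the authors with GCRMA, as the methods state. The submitters' processing notes name MAS5, and the version of either is not given in the sources used. Values of 34.8 to 761157 were taken to log2 here without an added constant, and 64 control probe sets were kept for quality only. The number of arrays limits the precision.

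Blocks of 12 hours came from the labelled times. Linear models were fitted with limma 3.58.1 in R 4.3.3 over all 45037 probe sets, with Benjamini-Hochberg adjustment at 0.05: block means, block means with a slope in each block, a 12 h cosine beside these, and the β-actin difference beside block means or within hours 44-55. Each ± is a standard error of the fit. The fits were tested on simulated data. Gene symbols came from the platform annotation, and 34741 were matched to RefSeq identifiers.

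The 150 members, the gene lists, the limit of 1.4 and the alternatives were chosen with earlier results of these data known. Named were the 30 genes with the highest difference, the 10 and 5 highest called slopes of hours 44-55 and 56-67, 3 probe sets on each side of the limit, members in a gene list and up to 4 other genes of that list. One gene of the 30 is not reported here. Genes shown for what happened without the 10 arrays, the role groups, the lysosome list, the genes not called and the 3 promoters were chosen after their values were seen. Python 3.11.15, pandas 2.3.3, numpy 2.4.6, scipy 1.17.1 and matplotlib 3.10.9 were used. Alternatives were quantile normalization, centring, an added constant of 100, other limits of the rule, arrays or hours left out, control differences as covariates, means of 3 hours and a block for the hour of the cycle.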

Additional observations from a re-analysis of the deposited data

Results flagged for a closer look

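One member, Ahnak, had a slope that differed between blocks by limma's test of the difference itself. Its slope was 0.09 ± 0.02 log2 per hour (SE) in hours 44-55 and -0.04 ± 0.02 in hours 56-67, a difference of 0.12 ± 0.03 (adjusted p = 0.0272), and 0.313% of all probe sets were called in this direction. Without the 10 arrays with a β-actin difference over 1.4 the slopes were 0.06 and -0.02, and limma called 0 of the 150 for the difference, with 12 at an unadjusted p under 0.05.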

How the results depend on the processing

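Of the 150 probe sets, the rule chose 39 again without the 10 arrays over 1.4, 72 with block medians, 92 with a flatness limit of 0.15, 97 with levels adjusted for the β-actin difference and 57 with levels adjusted for the Gapdh difference, both adjustments added after the data were seen. Without the 10 arrays, hours 56-67 minus hours 32-43 turned to -0.0561 for Tgfbr1 and -0.0630 for Ttpal, and kept its sign for the other 148, and all 150 kept it with the β-actin covariate. With the Gapdh covariate 146 of the 150 kept it. Each of these settings used arrays that chose the 150, so the counts are a description. For that difference 7621 of all probe sets and 101 members were called as reported, and 8019 and 97 with the hour of the cycle as a replicate block, which pairs arrays 24 h apart.

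Members called on slopes by limma changed as follows. In hours 20-31, 2 were called, against 6 among probe sets above the median only. In hours 32-43, 5 were called, against 2 each with quantile normalization, centring and probe sets above the median, 10 and 12 with the β-actin and the Gapdh covariate and 15 without the 10 arrays. In hours 44-55, 17 were called, against 5 each with quantile normalization and probe sets above the median, 3 with centring and 0 without hours 52-55 (72 at an unadjusted p under 0.05). As reported, 13806 of all probe sets were called down in that block, and 328 with centring on array medians. In hours 56-67, 1 was called, against 2 each with quantile normalization, log2 of value plus 100 and probe sets above the median, 4 with either covariate and 0 with centring or without the 10 arrays (9 and 13 unadjusted). Means of 3 hours gave 0 in each of the 4 blocks (21, 7, 26 and 7 unadjusted). Within hours 44-55, 118 members were called on the β-actin difference, against 14 without hours 45 and 46. The 12 h cosine gave 0 in each setting run, with 1 to 25 of the 150 at an unadjusted p under 0.05. Each hour has 1 array, so no error at a single hour could be given.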
